A study of Mus musculus with 2 samples.

Results

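The genes described are 10 immediate early genes, Fos, Fosb, Jun, Junb, Jund, Egr1, Ier2, Ier3, Atf3 and Zfp36, of 32285 genes counted. They were chosen by symbol as a fixed list, and all 10 were found. The study compares developing mouse pancreas with and without Fgf9, which encodes a secreted growth factor of the fibroblast family. Single cells of embryonic day 14.5 pancreas on a C57BL/6J background were profiled with the 10x Genomics droplet assay. The assay reads the 3' ends of RNAs, and a barcode names the cell while a unique molecular identifier (UMI) marks each molecule. The Null library holds 3 pancreata from 3 litters, pooled, in which a LacZ cassette inserted in Fgf9 makes both copies non-functional. The Control library holds 8 pancreata from 3 litters, pooled, of the genotypes Fgf9 +/+ and Fgf9 +/-. In both libraries the tissue had been dissociated with TrypLE at 37 °C for 15 min and sorted for live, DAPI-negative cells. Each group is 1 pooled library, so no difference has a replicate check, no test between groups was possible, and every interval is a 95% interval of counting error only.

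Immediate early genes are transcribed within minutes of a stimulus without new protein synthesis, and their RNAs are short-lived. Growth factors acting through the ERK pathway, calcium and cyclic AMP signals, stress and tissue dissociation are all known inducers, and the transcription factors SRF, its partners of the Elk family, and CREB act at their promoters. Most encode transcription factors. Fos and Jun proteins pair to form AP-1, Atf3 is a stress-induced relative that pairs with Jun proteins, Egr1 is a zinc-finger factor, and Zfp36 (tristetraprolin) is an RNA-binding protein that promotes the decay of short-lived messages.

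Promoter sequence is shown for the 5 genes in which a motif of known inducers was found in RefSeq's promoter table (GRCm38.p6). The table holds 8 of the 10 genes, all but Egr1 and Ier2, and the 250 bases before each RefSeq start site were searched on both strands. Each line gives the 120 bases before the start site, 5′ to 3′ in the gene's direction. Capitals mark TGACG or its reverse complement (the core of ATF and CREB sites) in the first 4 genes, and the CArG box, the site of SRF, in Zfp36. The windows are chr12:85473770-85473889 (plus strand) for Fos, chr7:19310046-19310165 (minus strand) for Fosb, chr8:84978749-84978868 (minus strand) for Junb, chr1:191183334-191183453 (minus strand) for Atf3 and chr7:28379229-28379348 (minus strand) for Zfp36.
Fos: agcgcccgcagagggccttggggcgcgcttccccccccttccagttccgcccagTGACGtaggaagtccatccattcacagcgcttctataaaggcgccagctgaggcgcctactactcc
Fosb: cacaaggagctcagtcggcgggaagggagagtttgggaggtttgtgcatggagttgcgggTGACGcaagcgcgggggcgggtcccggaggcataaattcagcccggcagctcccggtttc
Junb: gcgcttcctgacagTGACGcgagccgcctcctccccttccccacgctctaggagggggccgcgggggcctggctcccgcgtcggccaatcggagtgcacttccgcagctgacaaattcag
Atf3: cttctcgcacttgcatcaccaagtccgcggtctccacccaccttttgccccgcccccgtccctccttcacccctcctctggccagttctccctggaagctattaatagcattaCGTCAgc
Zfp36: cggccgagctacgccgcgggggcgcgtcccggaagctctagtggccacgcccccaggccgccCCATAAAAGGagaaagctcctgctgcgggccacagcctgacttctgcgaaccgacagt

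TGACG lay 66 to 62 bases before the start site of Fos, and again at 129 to 125, outside the stretch printed, 60 to 56 before that of Fosb, 106 to 102 before that of Junb and, on the reverse strand, 7 to 3 before that of Atf3. It was thus in 4 of the 8 promoters, against 17.9% of 27025 promoters in the table. The CArG box was in 1 of 8 (58 to 49 bases before the start site of Zfp36), against 1.40% of all promoters. TATAAA was in 1 of 8 (Fos) against 13.0%, CCAAT in 3 of 8 (Jun, Junb and Ier3) against 34.5%, and the AP-1 site TGANTCA in 0 of 8 against 6.87%. No match overlapped a match of another motif in these promoters. A match describes the letters in this window, not binding. For Fosb, Ier3, Atf3 and Zfp36 the RefSeq start lies inside the GENCODE gene, and for Junb and Jund the window ends upstream of the GENCODE start.

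In GENCODE vM21 (GRCm38) Fos is at chr12:85473890-85477273, Fosb at chr7:19302696-19310051, Jun at chr4:95049034-95052222, Junb at chr8:84974484-84978718, Jund at chr8:70698949-70700616, Ier2 at chr8:84661331-84662852, Ier3 at chr17:35821684-35822923, Atf3 at chr1:191170296-191218039 and Zfp36 at chr7:28376784-28380253. All are protein-coding genes, and 5 of the 10 genes (Jun, Junb, Jund, Atf3 and Zfp36) overlap an annotated gene on the opposite strand, for Junb the protein-coding Prdx2. No source used here states whether reads were counted by strand, so reads of these overlaps cannot be told apart.

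The Null library held 16708 barcodes with 271129120 UMIs and the Control library 30209 barcodes with 339959625 UMIs. After filtering, 7799 Null cells (median 26819 UMIs) and 14256 Control cells (median 16638.5 UMIs) fell in 10 cell classes named by marker genes, so the Null cells were the deeper ones. A further 1085 Null and 12703 Control barcodes, with medians of 1429 and 1695 UMIs, could not be named and are left out of the comparisons. The libraries shared 27 barcodes among named cells. Fgf9 RNA stood at 36.7 CPM in Null and 116 CPM in Control mesothelial cells, its highest class in both. A 3' tag outside the disrupted part does not check the allele. Xist, expressed from the inactive X chromosome of female cells, stood at 0.27 CPM in Null and 402 CPM in Control cells, so female cells were nearly absent from the Null library, and sex and genotype cannot be told apart. CPM are the UMIs of a gene per 1000000 UMIs of its class in that library, without haemoglobin and mitochondrially encoded genes. Classes rest on markers, and every class had its full marker list detected in both libraries. They are mesenchymal-like, acinar-like and so on, and are called by the class name alone.

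The immediate early genes together were a substantial transcript group in every class, and the immune class carried the most. Their summed level was 5418 CPM (5352 to 5485) in Null and 5737 CPM (5670 to 5805) in Control immune cells. That level was of the immune cluster led by C1qb, with 5736 CPM in 231 Null and 6094 CPM in 330 Control cells. The immune cluster led by S100a9 had 1413 CPM in 25 Null and 896 CPM in 23 Control cells. The lowest class in the Null library was endothelial, at 2172 CPM, and the lowest in Control were mesothelial, endothelial and endocrine progenitor cells, at 2092, 2101 and 2130 CPM, whose intervals overlap one another. The highest class thus exceeded the lowest by 2.49-fold in Null and 2.74-fold in Control. The order of classes between these ends differed between the libraries. Mesenchymal cells were the second class in Null, at 4502 CPM with an interval that overlaps smooth muscle or pericyte cells (4401 CPM), and the sixth in Control, at 2815 CPM, level with acinar cells there. Mesothelial cells were the fifth class in Null, at 3696 CPM, and the last in Control, at 2092 CPM. Summed levels were higher in Null in 9 of the 10 classes, all but the immune class, but not all beyond counting error. In endocrine cells the log2 ratio of the summed level was 0.009 (-0.008 to 0.025). The Null and Control intervals overlapped in endothelial cells and in glia or neurons. In ductal or bipotent progenitor cells the summed log2 ratio was 0.095, beside a median of 0.09 over all genes.

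**Figure D1:**
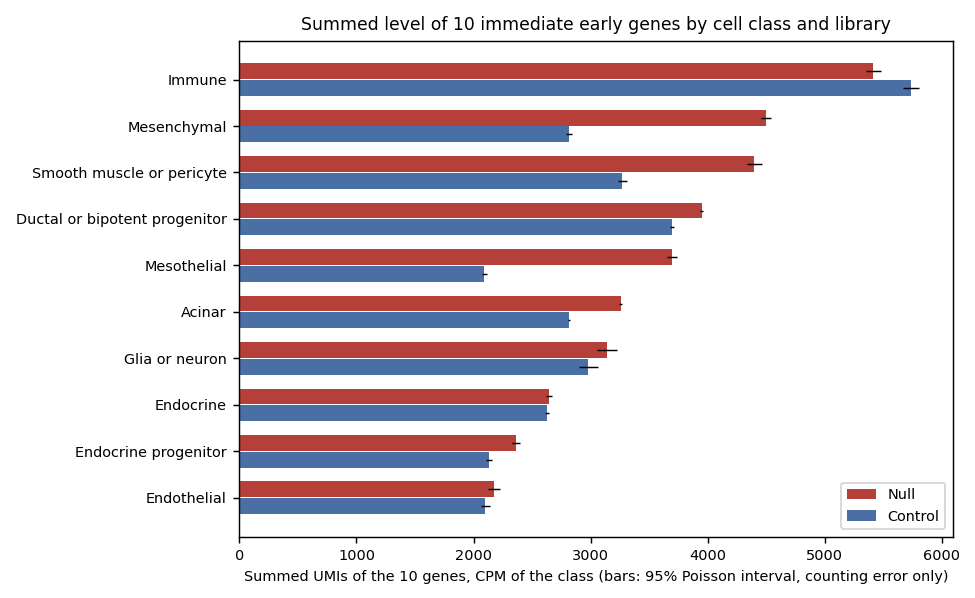
Summed UMIs of the 10 immediate early genes (x axis, CPM of the class) in each of 10 cell classes (rows), Null above Control, with 95% Poisson intervals of counting error. Null and Control bars are farthest apart in mesenchymal cells (4502 and 2815 CPM) and mesothelial cells (3696 and 2092 CPM), and Control is the higher one in immune cells (5418 CPM in Null, 5737 CPM in Control).

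The genes differed in how evenly they were spread over the classes. Jund, the constitutive Jun protein, was the most even, with a highest class 1.73 times its lowest in Null and 1.74 times in Control. It was highest in endocrine progenitor cells, at 675 CPM in Null and 615 CPM in Control. Jun, the main AP-1 partner of Fos, was highest in ductal or bipotent progenitor cells, at 1346 CPM in Null and 1271 CPM in Control. Ier3, which encodes a stress-inducible survival protein, was the least even. It stood at 415 CPM in Null and 349 CPM in Control immune cells, against 13.9 and 13.8 CPM in Null and Control acinar cells. Zfp36 was also mainly an immune transcript, at 408 CPM in Null and 389 CPM in Control immune cells, while no other class exceeded 80.9 CPM in Null or 52.3 CPM in Control. Junb stood at 1145 CPM in Null and 883 CPM in Control immune cells, with the next class at 357 CPM in Null (smooth muscle or pericyte) and 262 CPM in Control (endothelial). In the small immune cluster led by S100a9 these genes were lower than in the class. Ier3 had 154 CPM in Null and 42.0 CPM in Control there, Zfp36 201 and 59.9 CPM, and Junb 212 and 95.9 CPM. Of the 10 genes, 5 had their highest class in immune cells in the Null library and 7 in the Control library.

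**Figure D2:**
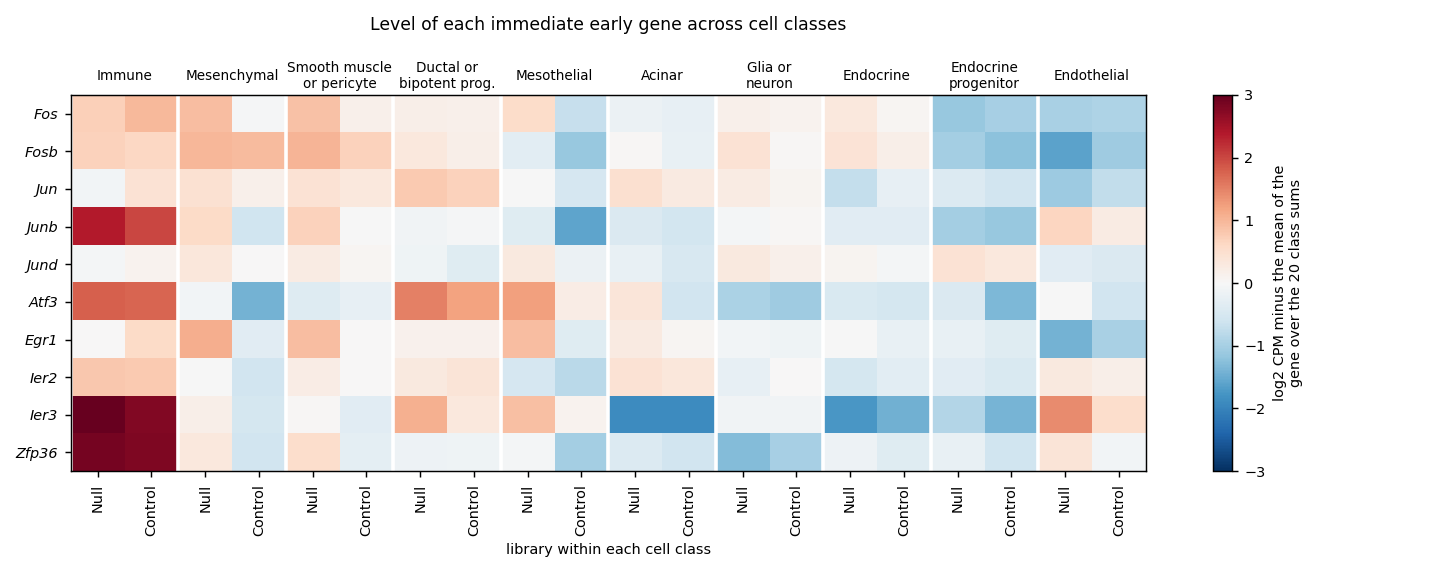
Level of each of the 10 genes (rows) in 10 cell classes, with the Null column left of the Control column in each class. Colour is log2 CPM minus the mean of that gene over the 20 class sums, so rows show where a gene is high relative to itself. Ier3, Zfp36 and Junb are darkest in immune cells of both libraries, and Egr1 and Fos are warmer in the Null column of mesenchymal and mesothelial cells.

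Mesenchymal and mesothelial cells, which form the connective tissue of the organ and its outer lining, held more RNA of most of the 10 immediate early genes in the Null library. The interval of the ratio lay above 0 for 9 of the 10 genes in mesenchymal cells, all but Fosb, and for 10 of 10 in mesothelial cells. The median log2 ratio of Null over Control over the 10 genes was 0.81 in mesenchymal cells (595 Null and 1973 Control cells) and 0.89 in mesothelial cells (503 Null and 1140 Control cells). The median of all genes with at least 20 UMIs was 0.01 in mesenchymal and -0.05 in mesothelial cells. Of those genes 51.7% were higher in Null in mesenchymal and 44.2% in mesothelial cells. At least 1.5-fold higher in Null were 6 of the 10 genes in mesenchymal cells, where 6.79% of 11084 genes with at least 100 UMIs were that much higher and 6.2% that much lower. In mesothelial cells 7 of the 10 passed, against 8.07% of 11102 genes higher and 9.25% lower. None of the 10 was 1.5-fold lower in either class.

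The Fos family is the part of AP-1 that is induced from a low level. Fos had 832 CPM in Null and 430 CPM in Control mesenchymal cells, a log2 ratio of 0.95 (0.91 to 1.00). In mesothelial cells it had 643 CPM in Null and 274 CPM in Control, a log2 ratio of 1.23 (1.17 to 1.29). The Null library was the higher one for Fos in both classes. Fosb, a slower and longer-lived relative, did not follow Fos in mesenchymal cells, with 271 CPM in Null and 261 CPM in Control (0.06, -0.01 to 0.12) and a log2 ratio of -0.12 with the estimated free RNA, which enters droplets from other cells, subtracted. In mesothelial cells Fosb had 109 CPM in Null and 62.1 CPM in Control (0.82, 0.69 to 0.94).

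The 3 Jun genes, which can form AP-1 with or without a Fos protein, lay apart from each other. Junb showed the largest ratio of them, with 329 CPM in Null and 146 CPM in Control mesenchymal cells (1.17, 1.10 to 1.25). Its mesothelial levels were 170 CPM in Null and 73.6 CPM in Control (1.21, 1.10 to 1.32). Jun and Jund, which are already abundant in unstimulated cells, were higher in Null by less than 1.5-fold in both classes. Jun had 1072 CPM in Null and 869 CPM in Control mesenchymal cells (0.30), and 769 CPM in Null and 552 CPM in Control mesothelial cells (0.48). Jund had 632 CPM in Null and 497 CPM in Control mesenchymal cells (0.35), and 611 CPM in Null and 439 CPM in Control mesothelial cells (0.48). Atf3 had 118 CPM in Null and 46.9 CPM in Control mesenchymal cells (1.33, 1.20 to 1.46), and its log2 ratio was 2.20 with free RNA subtracted. In mesothelial cells, where it was higher in both libraries, Atf3 had 297 CPM in Null and 146 CPM in Control (1.02, 0.94 to 1.10).

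Egr1, a direct target of ERK and SRF, was among the genes with the highest ratios in both classes, with an interval that overlaps that of Atf3 in mesenchymal and that of Fos in mesothelial cells. It stood at 865 CPM in Null and 320 CPM in Control mesenchymal cells, 2.70-fold higher, with a log2 ratio of 1.43 (1.38 to 1.48). Its mesothelial levels were 766 CPM in Null and 316 CPM in Control, 2.43-fold higher, with a log2 ratio of 1.28 (1.23 to 1.33). Control mesenchymal and mesothelial cells thus had nearly the same Egr1 level, and the Null cells of both stood well above it. Zfp36 stood at 69.3 CPM in Null and 37.2 CPM in Control mesenchymal cells (0.90), and at 53.5 CPM in Null and 27.6 CPM in Control mesothelial cells (0.95). Ier3 stood at 57.8 CPM in Null and 35.2 CPM in Control mesenchymal cells (0.72), a ratio under 1.5-fold with cells thinned to 2000 UMIs (0.40), and at 95.2 CPM in Null and 54.7 CPM in Control mesothelial cells (0.80). Ier2, a small nuclear protein that acts in transcription, was just under the 1.5-fold line in mesenchymal cells, with 256 CPM in Null and 173 CPM in Control (0.57). In mesothelial cells Ier2 had 183 CPM in Null and 147 CPM in Control (0.32), the smallest ratio of the 10 there.

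**Figure D3:**
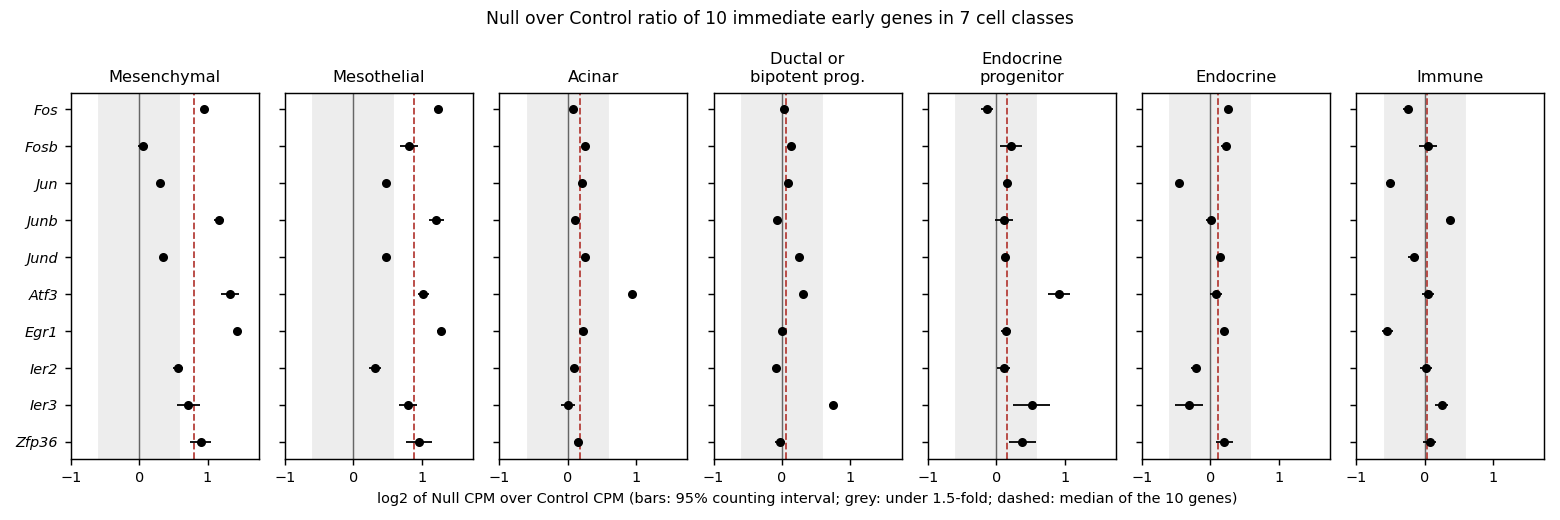
Log2 of Null CPM over Control CPM (x axis) for each of the 10 genes (rows) in 7 cell classes (panels), with 95% intervals, the range under 1.5-fold in grey and the median of the 10 genes dashed. In mesenchymal and mesothelial cells the medians are 0.81 and 0.89 and the points lie right of 0, with an interval that spans 0 for Fosb in mesenchymal cells, while the other 5 medians lie between 0.03 and 0.18.

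In acinar cells, which make digestive enzymes, 9 of the 10 genes had a ratio whose interval lay above 0, mostly by little, and Ier3 was level (0.0050, -0.095 to 0.105). With the 4 acinar clusters weighted alike, 7 of the 10 were higher in Null. The median log2 ratio was 0.18, beside -0.02 over all genes with at least 20 UMIs, of which 45.8% were higher in Null. Atf3 was the exception, with 162 CPM in Null and 84.5 CPM in Control acinar cells (0.94, 0.90 to 0.97), and was the 1 gene of 10 past 1.5-fold, where 2.88% of all genes were that much higher and 3.87% lower. Atf3 was higher in Null in each of the 4 acinar clusters, from 132 CPM in Null and 81.2 CPM in Control in the one led by Nupr1 to 207 CPM in Null and 107 CPM in Control in the one led by 2210010C04Rik. The second largest acinar ratio, 0.26, belonged to Jund and Fosb.

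Ductal or bipotent progenitor cells had a median of 0.05, below the 0.09 of all genes. Of the 10 genes 7 were higher in Null, as were 64.8% of all genes. Their 1 gene past 1.5-fold was Ier3, with 107 CPM in Null and 63.4 CPM in Control (0.75, 0.69 to 0.81). In this class 4.89% of all genes were that much higher and 2.22% lower. Egr1 was at 440.1 CPM in Null and 439.5 CPM in Control ductal cells, and Fos at 502 and 493 CPM in Null and Control. Endocrine progenitor cells had a median of 0.15, beside 0.04 over all genes, and 9 genes higher in Null, where 56.6% of all genes were higher. Again Atf3 was the 1 gene past 1.5-fold, with 93.8 CPM in Null and 49.7 CPM in Control (0.92, 0.76 to 1.07). The background there was 1.69% higher and 3.15% lower. The Atf3 ratio in endocrine progenitors was larger in the cluster led by Ghrl and Pax4, at 173 CPM in Null and 58.5 CPM in Control, while the cluster led by Neurog3 had 54.5 CPM in Null and 44.8 CPM in Control.

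Endocrine cells showed no common direction, with 7 of the 10 genes higher in Null, where 56.3% of all genes were higher. Their median was 0.11, beside 0.06 over all genes. Past 1.5-fold were 0 of 10 genes, against 5.69% of all genes higher and 11.1% lower. Jun stood at 479 CPM in Null and 660 CPM in Control endocrine cells (-0.46, -0.50 to -0.43). The endocrine clusters held different shares of each library, and Jun was closer within them, at 537 CPM in Null and 558 CPM in Control in the cluster led by Sst, 300.3 CPM in Null and 368 CPM in Control in the one led by Ins1, and 884 CPM in Null (85 cells) and 932 CPM in Control (500 cells) in the one led by Gm45486. With these clusters weighted alike the log2 ratio of Jun was -0.11. Fos stood at 550.2 CPM in Null and 460 CPM in Control (0.26). Immune cells had a median of 0.03, beside -0.08 over all genes, with 6 genes higher and 4 lower, where 42.4% of all genes were higher. In this class 0 of 10 passed 1.5-fold, against 8.21% of all genes higher and 10.4% lower. Egr1 was lower in Null immune cells, at 409 CPM against 598 CPM in Control (-0.55, -0.63 to -0.46), as was Jun, at 739 CPM in Null against 1048 CPM in Control (-0.50). Junb ran the other way, at 1145 CPM in Null and 883 CPM in Control immune cells (0.37, 0.32 to 0.43). Free RNA was estimated from acinar enzyme UMIs, against the profile of deposited barcodes under 1000 UMIs (6282 in Null, 244 in Control). It made up 7.61% of Null and 31.2% of Control immune UMIs by this estimate. A second doublet call marked 0.781% of Null and 15.0% of Control immune cells. The immune median was -0.29 with the free RNA subtracted and -0.12 without those doublets. With the free RNA subtracted, 1 of the 10 genes was higher in Null immune cells and 2 were at least 1.5-fold lower, against 11.6% of all genes. Egr1 was then at -0.81, Jun at -0.72 and Junb at 0.027. Without those doublets 3 of the 10 were higher and 1 was at least 1.5-fold lower, against 6.03% of all genes. Egr1 was then at -0.62, Jun at -0.44 and Junb at 0.17. In endocrine cells free RNA made up 7.04% of UMIs in Null and 41.1% in Control, and in ductal cells 6.50% in Null and 17.2% in Control. With it subtracted, the ductal median was -0.04. Across the 7 classes, Atf3 passed 1.5-fold in 4, Ier3 in 3, Fos, Junb, Egr1 and Zfp36 in 2 each, Fosb in 1, and Jun, Jund and Ier2 in 0.

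The 3 classes under 200 Null cells were not compared by ratio. Smooth muscle or pericyte cells (175 Null and 437 Control cells) had 774 CPM of Egr1 in Null and 410 CPM in Control, and 816 CPM of Fos in Null and 491 CPM in Control. Endothelial cells (184 Null and 331 Control cells) had 152 CPM of Egr1 in Null and 205 CPM in Control, but 136 CPM of Ier3 in Null and 74.2 CPM in Control. In glia or neurons (148 Null and 156 Control cells) Egr1 stood at 380 CPM in Null and 369 CPM in Control.

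More Null than Control cells held several of the genes at once in the 2 classes with the largest ratios, and in smooth muscle or pericyte cells. Each cell was thinned to 2000 UMIs so that depth could not set the count. In mesenchymal cells 41.3% of 589 Null cells (37.2 to 45.4%) and 20.4% of 1968 Control cells (18.6 to 22.2%) had at least 5 of the 10 genes detected. In mesothelial cells these were 32.3% of 499 Null cells (28.2 to 36.6%) and 13.1% of 1139 Control cells (11.2 to 15.2%). In smooth muscle or pericyte cells they were 43.1% of 174 Null cells (35.6 to 50.8%) and 30.4% of 437 Control cells (26.2 to 35.0%). The share of mesenchymal cells with none of the 10 was nearly the same, 5.09% in Null and 5.28% in Control, and the difference lay at the upper end. In mesothelial cells the share with none was 5.81% in Null and 9.22% in Control. The 10% of mesenchymal cells with the most of these UMIs held 29.2% of them in Null and 26.6% in Control. The most abundant 10% of mesothelial cells held 34.8% in Null and 32.4% in Control.

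Egr1 was detected in 62.0% of thinned Null and 40.4% of thinned Control mesenchymal cells, and in 55.5% of Null and 35.4% of Control mesothelial cells. Without thinning these shares were 86.4% in Null and 77.9% in Control mesenchymal cells, and 82.1% in Null and 77.5% in Control mesothelial cells. In immune cells the thinned share of Egr1 was 34.8% in Null (28.9 to 41.2%) and 53.6% in Control (48.0 to 59.2%). Of the 10 genes, 9 had a higher thinned share in Null mesenchymal cells, all but Fosb (31.9% in Null, 34.1% in Control), and 10 in Null mesothelial cells. This count was not made over all genes, so it has no background. Acinar cells were closer together, with 31.0% of Null and 24.4% of Control cells holding at least 5 of the genes, and immune cells closer still, with 58.6% in Null and 59.3% in Control. No class lacks these genes, so a background share from free RNA could not be read from any of them.

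**Figure D4:**
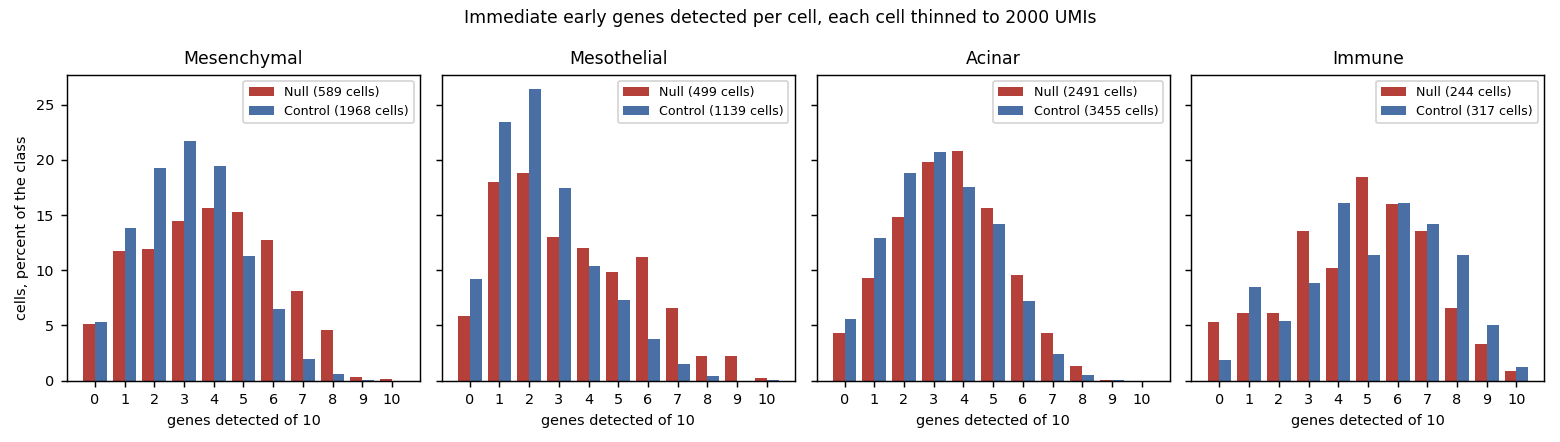
Share of cells (y axis, percent of the class) by the number of the 10 genes detected (x axis) after each cell was thinned to 2000 UMIs, in 4 classes, Null bars left of Control bars. In mesenchymal and mesothelial cells the Null bars are taller from 5 genes up (41.3% against 20.4% and 32.3% against 13.1%, Null against Control), and in immune cells the totals from 5 up are close (58.6% in Null, 59.3% in Control).

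The mesenchymal and mesothelial differences were measured again within strata. When the mesenchymal cells of each library were split into 4 bins of equal cell number by total UMIs, the summed level of the 10 genes lay between 3644 and 5076 CPM in the Null bins and between 2315 and 3020 CPM in the Control bins. Split by the mitochondrially encoded share, a measure of cell quality, the Null bins lay between 3329 and 4938 CPM and the Control bins between 2446 and 3019 CPM. The lowest Null bin thus stood above the highest Control bin in both splits. Mesothelial bins by total UMIs lay between 3284 and 4888 CPM in Null and between 1762 and 2345 CPM in Control. The shallowest bin was the highest of the Null ones and the lowest of the Control ones. The median mitochondrial share itself was lower in Null in both classes, 2.90% against 3.28% in Control mesenchymal cells and 2.99% against 3.76% in Control mesothelial cells.

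The cell states within these classes were largely of 1 library. Clustered again without the immediate early genes, mesenchymal cells fell into 8 subclusters, of which 2 had at least 20 cells of each library and held 73.9% of the Null and 8.16% of the Control mesenchymal cells. The subcluster led by Fibin and Lum had 4672 CPM of the 10 genes in 406 Null cells and 2331 CPM in 46 Control cells, and all 10 were higher in Null. The subcluster led by the mitotic genes Cenpf and Mki67 had 4946 CPM in 34 Null cells and 3350 CPM in 115 Control cells, with 8 of the 10 higher in Null. Its exceptions were Jun, at 1033 CPM in Null and 1138 CPM in Control, and Fosb, at 301 CPM in Null and 337 CPM in Control. The subcluster with the most Control cells had few Null ones and ran the other way, with 1865 CPM in 14 Null cells and 2807 CPM in 809 Control cells.

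Mesothelial cells fell into 10 subclusters, of which 3 had at least 20 cells of each library, holding 19.3% of Null and 46.5% of Control mesothelial cells. In the subcluster led by Myh8 and Bst2 the summed level was 4470 CPM in 22 Null cells and 2091 CPM in 211 Control cells. In the mitotic one, led by Cenpf and Nusap1, it was 3140 CPM in 53 Null cells and 1914 CPM in 149 Control cells. In the one led by the S-phase gene Pclaf it was 4658 CPM in 22 Null cells and 1920 CPM in 170 Control cells. All 10 genes were higher in Null in each of these 3. Of the subclusters under 20 cells in a library, the summed level was lower in Null in the one with 2 Null cells (1052 CPM) and 351 Control cells (2003 CPM), and in the one led by the epithelial genes Spp1 and Sox9, with 2425 CPM in 3 Null cells and 2714 CPM in 92 Control cells. The subclusters with at least 20 cells of each library, weighted alike, gave medians of 0.95 in mesenchymal and 1.09 in mesothelial cells. The subclusters with a lower summed level in Null do not enter these medians.

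**Figure D5:**
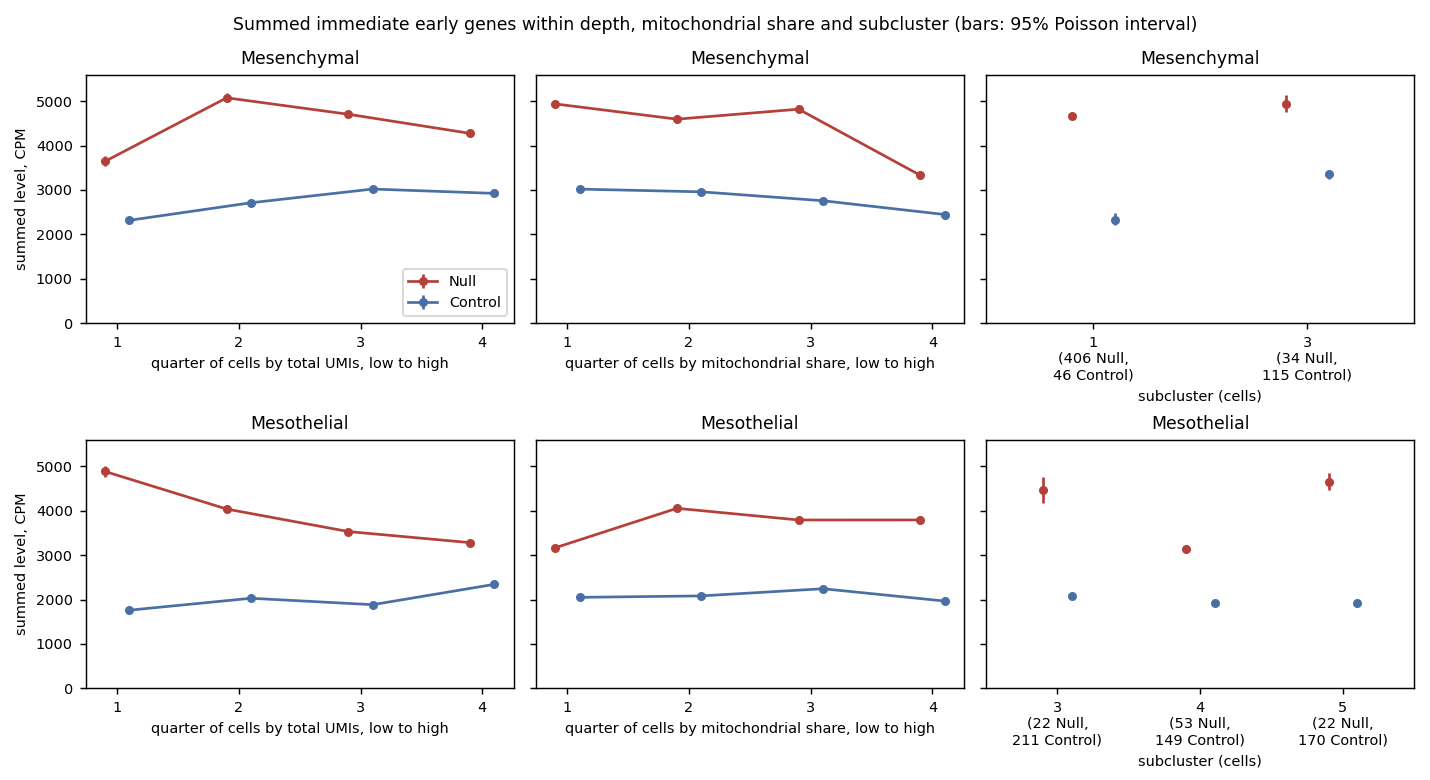
Summed level of the 10 genes (y axis, CPM, with 95% Poisson intervals) in mesenchymal cells (top) and mesothelial cells (bottom), in 4 bins by total UMIs, in 4 bins by mitochondrial share, and in subclusters with at least 20 cells of each library. The Null points stand above the Control points in every stratum drawn, from 3329 CPM upward in Null mesenchymal bins against at most 3020 CPM in Control ones.

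Markers of other cell types and free RNA moved with the library. In mesothelial cells the 8 mesenchymal markers, all detected in both libraries, summed to 5645 CPM in Null and 1754 CPM in Control. The 5 erythroid markers summed to 909 CPM in Null and 21.5 CPM in Control mesothelial cells. In mesenchymal cells the 6 smooth muscle markers, all detected, summed to 731 CPM in Null and 242 CPM in Control. The 9 acinar markers, all detected, summed to 1163 CPM in Null and 2502 CPM in Control mesenchymal cells. Estimated from acinar enzyme UMIs, free RNA made up 5.75% of Null and 22.5% of Control mesenchymal UMIs, and 5.26% of Null and 17.6% of Control mesothelial UMIs. The enzymes stood at 19959 CPM in the free profile of Null and 10898 CPM in that of Control, so these shares rest on unlike profiles. The estimate cannot tell free RNA from enzyme UMIs of doublets. With that share subtracted, the median log2 ratio was 0.88 in mesenchymal and 1.03 in mesothelial cells. A second doublet call marked 0.795% of Null and 9.74% of Control mesothelial cells, and without them the median was 1.05. The part of the other markers in the result was not tested.

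The genes whose level followed the 10 most closely from cell to cell were mostly other immediate early genes. Likeness is the Pearson correlation over the cells of a class and library between a gene and the mean of the 10, averaged over 14 such sets. It is a description, since the cells of a set share a library and its depth. Of 10408 genes scored, with a median likeness of 0.014, the highest were Btg2 at 0.504, Ppp1r15a at 0.417, Nr4a1 at 0.415, Dusp1 at 0.398 and Klf6 at 0.364. Btg2 restrains proliferation, Ppp1r15a restarts translation after stress, Nr4a1 is an orphan nuclear receptor and Dusp1 is a phosphatase that switches off MAP kinases. Also among the highest were Pnrc1 (0.353), Nfkbia (0.336), Rhob (0.330) and Ccn1 (0.325). Among the 10 themselves, Fos was most like the other 9, at 0.660, and Ier3 the least, at 0.264. The closest pair was Fos and Egr1, at 0.54, and the most distant Fosb and Ier3, at 0.11.

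The other immediate early genes, a further list of 30, leaned the same way in the 2 classes. In mesenchymal cells 24 of 29 with enough UMIs were higher in Null, with a median log2 ratio of 0.44, and 10 of 28 were at least 1.5-fold higher and 0 lower. Of all genes there, 51.7% were higher in Null, 6.79% at least 1.5-fold higher and 6.2% that much lower. Egr3, a close relative of Egr1, stood at 20.6 CPM in Null and 6.50 CPM in Control (1.67), and Btg2 at 169 CPM in Null and 76.0 CPM in Control (1.15). At the other end were Sgk1, a survival kinase, at -0.33 and Btg1 at -0.31. In mesothelial cells 23 of 29 were higher in Null, with a median of 0.40, 11 at least 1.5-fold higher and 4 lower. Of all genes there, 44.2% were higher in Null, 8.07% at least 1.5-fold higher and 9.25% that much lower. Klf4 stood at 152 CPM in Null and 50.5 CPM in Control (1.59) and Ccn2 at 14.0 CPM in Null and 5.49 CPM in Control (1.35). Sgk1 stood at 11.8 CPM in Null and 31.1 CPM in Control mesothelial cells (-1.40), and Klf2 at -1.13.

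Heat shock genes, which mark protein stress, had medians near 0. In mesenchymal cells the median was 0.08, with 8 of 12 higher in Null, against 51.7% of all genes. At least 1.5-fold higher were 2, against 6.79% of all genes, Hspb1 at 1.16 and Hspa1b at 1.05. The lowest there were Hspe1 at -0.28 and Hspa1a at -0.10. In mesothelial cells the median was -0.10, with 5 of 12 higher, against 44.2% of all genes. At least 1.5-fold higher were 3, against 8.07% of all genes, led by Hspb1 at 0.97 and Bag3 at 0.96. The lowest were Hspe1 at -0.47 and Hsph1 at -0.33.

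ERK feedback and target genes, which report signaling through growth factor receptors, differed between the 2 classes. In mesenchymal cells 9 of 13 were higher in Null, against 51.7% of all genes, with a median of 0.10. Spry2 was at 22.9 CPM in Null and 15.1 CPM in Control (0.60), while its relative Spry1 was at 27.6 CPM in Null and 53.3 CPM in Control (-0.95). Dusp6, the ERK phosphatase, was at 0.38 and Spry4 at -0.36. In mesothelial cells 3 of 13 were higher in Null, against 44.2% of all genes, with a median of -0.76. At least 1.5-fold lower were 5 of 9, against 9.25% of all genes. Ccnd1, a D-type cyclin, stood at 12.8 CPM in Null and 76.1 CPM in Control mesothelial cells (-2.57), and Il17rd, an inhibitor of fibroblast growth factor receptors, at 5.37 CPM in Null and 21.1 CPM in Control (-1.98). The highest were Spred1 at 0.17 and Dusp5 at 0.05. The immediate early genes and this list thus pointed in opposite directions in mesothelial cells, with medians of 0.89 and -0.76, and that difference was not tested.

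The kinases and factors upstream had medians of 0.05 in mesenchymal and -0.03 in mesothelial cells. Srf itself was at 11.2 CPM in Null and 8.48 CPM in Control mesenchymal cells (0.39), and at 5.58 CPM in Null and 9.90 CPM in Control mesothelial cells (-0.83). Of the other AP-1 partners, 8 of 10 were higher in Null mesenchymal cells, against 51.7% of all genes. Their median was 0.12, and Batf3 was at 1.19. In mesothelial cells 5 of 9 were higher, against 44.2% of all genes, with a median of 0.05, from Atf5 at 0.81 to Batf3 at -1.01.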

How the data were processed

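The authors deposited, per the file headers, raw UMI counts (whole numbers, not normalized) made with Cell Ranger 6.1.1. Per the submitters' processing notes bcl2fastq and Seurat 3.2.3 were also used, with the mm10 build. Which barcodes were called cells was taken as deposited.

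Barcodes with at least 1000 UMIs, at least 300 genes and under 15% mitochondrially encoded UMIs were kept. Scrublet in scanpy 1.11.5 removed 520 Null doublets (5.53%). In Control it set no threshold, so a score of 0.25 was used and removed 220 (0.809%), and more doublets may remain there. Run again on only those barcodes with 5000 UMIs or more, the second call marked 3.81% in Null and 9.09% in Control. Both libraries were clustered together (2000 variable genes, 30 components, 15 neighbours, Leiden resolution 1) without integration and without immediate early, heat shock, haemoglobin and mitochondrially encoded genes. A cluster took the class of its best marker list where that list scored at least 1 (log2), led the next unrelated list by at least 0.5, had at least 3 markers up and the cluster's median was at least 3000 UMIs. It was left unnamed where its leading genes were of another class or of 2 unrelated classes. The latter rule left out a cluster of 16 Null and 237 Control cells, with a median of 41840 UMIs and acinar as its best list. These limits were set after seeing the data, as were the subclusters.

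Counts were summed per class and library. Ratios carry an exact binomial-based interval that conditions on the sum of both counts, CPM the exact Poisson interval and shares the exact Clopper-Pearson interval (scipy 1.17.1). Only the ratio and its interval were run on simulated counts. Those were Poisson counts, which the interval assumes, so the run cannot show how it holds for these UMIs. Poisson counts have a variance equal to their mean. The summed UMIs of the 10 genes per thinned cell had a variance above it in every class. It was from 1.69 times the mean in Control endocrine progenitor cells to 9.17 times in Null mesothelial cells. The ratio and CPM intervals are thus too narrow for the spread between cells. UMIs within a pool of embryos are not replicates. Classes of at least 200 cells in each library were compared, and medians use genes with at least 20 UMIs. The 10 genes and the lists were chosen with earlier results of these data known. All 10 are named in every class compared. Other named genes are the 10 highest in likeness (at least 1000 UMIs in each library) and, per list and class, the 2 highest and 2 lowest ratios (at least 100 UMIs). Subcluster and cluster names are leading genes, chosen after their values were seen. Alternatives covered depth, doublets, scaling, averaging over cells, cluster weights, free RNA, thinning, the fold and the background minimum. Genes were placed with GENCODE vM21. Some genes that the naming rule selects are not reported here.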

Additional observations from a re-analysis of the deposited data

Results flagged for a closer look

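For 4 genes the ratio of Null over Control was at least 1.5-fold in some classes and had the opposite sign in others. For Fos the log2 ratios were 0.95 in mesenchymal and 1.23 in mesothelial cells, against -0.14 in endocrine progenitor and -0.25 in immune cells. For Junb they were 1.17 in mesenchymal and 1.21 in mesothelial cells, against -0.080 in ductal or bipotent progenitor cells. For Egr1 they were 1.43 in mesenchymal and 1.28 in mesothelial cells, against -0.55 in immune cells. For Ier3 they were 0.72 in mesenchymal, 0.80 in mesothelial and 0.75 in ductal or bipotent progenitor cells, against -0.31 in endocrine cells. The endocrine sign of Ier3 did not hold, with 0.065 when clusters were weighted alike and 6.23 with free RNA subtracted. The latter is not a measured fold. The subtraction left few or no Control UMIs of Ier3, and an empty sum was set to 3 counts. With 1 library per group the difference between classes was not tested.

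Barcodes outside the comparisons also carried these RNAs. The summed level was 3657 CPM in Null and 2302 CPM in Control among the unnamed barcodes. Among barcodes under 1000 UMIs (6282 in Null, 244 in Control) it was 2675 CPM in Null and 2214 CPM in Control. This difference was not tested either.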

How the results depend on the processing

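In mesenchymal and mesothelial cells each alternative run kept the median of the 10 genes above 0. The mesenchymal median, 0.81, was 0.95 with the subclusters of at least 20 cells in each library weighted alike. These held 8.16% of Control mesenchymal cells. The mesothelial median, 0.89, was 1.03 with free RNA subtracted, 1.08 as a mean over cells and 1.05 without the second doublet call. It was 1.09 with such subclusters weighted alike, which held 19.3% of Null mesothelial cells. The acinar median was 0.10 with clusters weighted alike and 0.22 with cells thinned. The ductal median turned to -0.037 with the median of all genes set to 0 and to -0.039 with free RNA subtracted, and was 0.093 as a mean over cells and 0.13 thinned. The endocrine median was 0.20 as a mean over cells, 0.18 thinned and 0.0029 with free RNA subtracted. The immune median was -0.29 with free RNA subtracted, -0.15 thinned and -0.12 without the second doublet call. With a fold of 2, 3 genes passed in mesenchymal cells, where 2.85% of all genes did, and 4 in mesothelial cells, where 3.77% did. In acinar, ductal and endocrine progenitor cells 0 passed, against 0.744%, 1.37% and 0.192% of all genes. With free RNA subtracted, 2 passed 1.5-fold in endocrine progenitor cells, where 4.89% of all genes did. In endocrine cells 1 passed, Ier3, where 13.3% of all genes did, and few or no Control UMIs of Ier3 remained there. At least 1.5-fold lower in immune cells were 2 with free RNA subtracted (11.6% of all genes), 1 thinned (19.4%) and 1 without the second doublet call (6.03%). Of the 10 genes, 4 (thinned to 5000 UMIs) and 8 (unthinned) had a higher share of cells in Null immune cells, against 2 thinned to 2000. The same counts were not made over all genes. The cause of these shifts was not tested. No free RNA was subtracted in acinar cells, the source of the enzyme UMIs. No paired analysis was possible because each group is 1 library. Counting error is larger where UMIs are few, and over all named cells Ier3 and Zfp36 had the fewest of the 10. Over the genes, compared classes and alternative runs, 208 single-gene ratios moved outside their counting interval and 362 stayed within it. The intervals thus do not cover the effect of processing. Genotype, sex and library differ together between the groups.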

Other observations

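Outside mesenchymal and mesothelial cells the other lists gave small medians. Other immediate early genes had a median log2 ratio of 0.15 in acinar cells (23 of 30 higher in Null), 0.19 in ductal or bipotent progenitor cells (21 of 30) and 0.11 in endocrine progenitor cells (17 of 29). Of all genes 45.8%, 64.8% and 56.6% were higher in Null in these classes, and 56.3% in endocrine and 42.4% in immune cells. In endocrine cells the median was -0.15, with 12 of 30 higher in Null and 6 of 29 at least 1.5-fold lower, against 11.1% of all genes. In immune cells it was 0.18, with 18 of 29 higher and 6 of 28 at least 1.5-fold lower, against 10.4% of all genes.

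ERK feedback and target genes were mostly lower in Null in these classes. The median was -0.35 in acinar cells (1 of 14 higher in Null), -0.21 in ductal or bipotent progenitor cells (3 of 14), -0.30 in endocrine progenitor cells (2 of 13), -0.22 in endocrine cells (5 of 14) and -0.18 in immune cells (2 of 10). Heat shock genes had a median of -0.10 in acinar cells (2 of 12 higher in Null) and -0.30 in immune cells (2 of 12).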
